A study of Mus musculus with 158 samples.

Results

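On the mouse autosomes, 2326 CTCF-bound sites were open in embryonic stem cells (mESC) and in none of 20 adult tissue and B cell data sets. A site is a hotspot, a stretch of the genome in which the density of sequenced fragments exceeded the local background at a false discovery rate of 5%. The CTCF hotspots came from chromatin immunoprecipitation of CTCF (ChIP-seq), and the open sites came from DNase-seq, in which DNase I cuts accessible DNA. A CTCF hotspot was taken when it overlapped a stem cell DNase-seq hotspot by 1 bp or more and overlapped no hotspot of any adult set. Of 92712 autosomal CTCF hotspots, 36213 (39.1%) overlapped stem cell DNase-seq hotspots, and 2326 of these met the rule, which is 6.42% (95% Wilson interval 6.18 to 6.68%) of the open CTCF sites and 2.51% of all CTCF hotspots. The remaining 33887 sites were open in 1 or more adult set and are called shared sites below. The measured hotspots chose the members, so their number, their scores and their absence from adult sets are a description and were not tested.

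The stem cells were a B6xCAST hybrid line grown on gelatin with leukaemia inhibitory factor in a medium of 80% 2i, which contains inhibitors of GSK3 and MEK, and 20% serum medium. The labels and methods name this hybrid, but one listing of the stem cell libraries that came with the study names B6xC3H, and the labels were followed here. The labels list 2 stem cell DNase-seq samples and 1 CTCF ChIP-seq sample, with 1 hotspot set for each assay, and whether the DNase-seq set pools both samples is not given in the sources used here. Neither set has a replicate, and fewer open cells cannot be told apart from weaker opening in each cell. The adult sets were liver, kidney, lung and B cells of 5 F1 hybrids, 1 set per tissue and hybrid, called on pooled replicates. All hybrids had C57BL/6J mothers. Their fathers were CAST/EiJ in B6xCAST, PWK/PhJ in B6xPWK, SPRET/EiJ in B6xSPRET, C3H/HeJ in B6xC3H and, in B6x129, the substrain given with the methods. No group is labelled with a transgene, a deletion or a treatment. Liver, kidney and lung were whole organs, typically pooled from 4 mice and therefore mixtures of cell types. All mice were 8 weeks old. The marrow B cells came from females and were enriched by depletion of cells bearing CD43 or Mac-1/CD11b, not by positive selection. Adult sets held 78387 to 295565 hotspots and the stem cell DNase-seq set held 115267.

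CTCF is a zinc finger protein that binds a long, GC-rich recognition sequence and stalls the cohesin complex as it extrudes chromatin loops, so that bound sites mark the ends of loops and domains and insulate enhancers from promoters. Binding is blocked at many sites by methylation of a CpG in the recognition sequence, and cultured stem cells kept in 2i carry less DNA methylation than adult cells. Most CTCF sites are bound in many cell types, and the sites that vary between cell types are often weaker matches to the recognition sequence. Imprinted control regions and promoters of germline genes are known examples of sites whose methylation differs between early embryonic and adult cells.

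The sequences below are shown because they carry both ends of the comparison. Capitals mark the 20 bases that best matched a CTCF weight matrix. The matrix was learned from sites open in all 20 adult sets, which are shared sites, and therefore from no member. The first 3 sequences are among the highest-scoring sites open in all 20 adult sets, and they read the strand that matched.
Near Gm47714, chr9:30480663-30480722 (+): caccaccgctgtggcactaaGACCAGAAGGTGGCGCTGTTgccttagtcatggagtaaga
Intron of Iqsec1, chr6:90737589-90737648 (−): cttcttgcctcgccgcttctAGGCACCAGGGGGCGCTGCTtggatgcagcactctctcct
Upstream of Sh3gl1, chr17:56036704-56036763 (−): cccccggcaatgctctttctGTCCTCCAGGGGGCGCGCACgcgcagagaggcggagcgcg
Members at the starts of germline genes, described further below, hold the same kind of match.
Dpep3, chr8:105979443-105979502 (+): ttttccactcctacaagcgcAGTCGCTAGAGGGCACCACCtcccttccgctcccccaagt
Tdrd12, chr7:35537763-35537822 (−): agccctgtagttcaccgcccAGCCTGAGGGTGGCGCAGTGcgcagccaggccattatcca
Sycp2, chr2:178407721-178407780 (+): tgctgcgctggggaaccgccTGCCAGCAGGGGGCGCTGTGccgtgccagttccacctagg
Morc1, chr16:48431177-48431236 (+): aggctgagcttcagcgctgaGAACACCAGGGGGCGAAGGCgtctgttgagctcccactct
Members of the highest score often lack it. Of the 4 printed next, the first 3 had best-matching 20 bases under the threshold given below, and Gm49554 held a match.
Sfi1, chr11:3187586-3187645 (−): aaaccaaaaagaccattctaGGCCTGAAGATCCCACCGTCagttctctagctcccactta
Gm26917, chr17:39845843-39845902 (−): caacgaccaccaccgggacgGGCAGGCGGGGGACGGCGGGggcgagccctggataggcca
Gm10717, chr9:3025462-3025521 (−): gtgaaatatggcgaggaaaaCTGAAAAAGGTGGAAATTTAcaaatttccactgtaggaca
Gm49554, chr16:3123033-3123092 (+): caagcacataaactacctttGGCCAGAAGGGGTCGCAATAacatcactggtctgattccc
All coordinates are of mm10 (GRCm38), and gene names and starts are from GENCODE. The matrix had the consensus GGCCACCAGGGGGCGCTAGA. Its score is given in bits, a log2 ratio of the match to a background in which all bases are equally frequent. The best match scored 20.90 bits near Gm47714, 22.23 bits at Sycp2, 15.40 bits at Morc1, 14.45 bits at Dpep3 and 11.45 bits at Tdrd12. It scored 3.24 bits at Sfi1, 4.04 bits at Gm26917 and −2.44 bits at Gm10717, and it scored 17.72 bits near Gm49554. A site was said to hold the CTCF motif when the best score in the 300 bases at its centre was at least 11.13 bits, the score reached by 5% of windows moved away by 10 kb.

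The labels were checked against marker genes by asking whether a hotspot lay within 1 kb of a start. All 5 stem cell markers (Pou5f1, Nanog, Sox2, Esrrb and Zfp42) had a stem cell DNase-seq hotspot. All 5 liver, all 5 kidney and all 5 lung markers had one in each of the 5 sets of their own tissue, and so did 4 of 5 B cell markers, with Vpreb1 in 3 of 5 sets. Many of these starts were open elsewhere too and do not separate the tissues: Alb was open in all 5 kidney and all 5 lung sets, Scgb1a1 and Ager in all 5 liver sets, and Sox2 and Esrrb in all 5 liver and all 5 kidney sets. In the stem cells 1 liver, 1 kidney, 0 lung and 2 B cell markers were open, together with 4 of 5 fibroblast markers and 5 of 6 genes of differentiated lineages, and all of these starts but that of T were also open in some adult sets. The part of other cells in the member list was not tested.

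Several features set some members apart and are given before the results. At 150 members (6.45%) the gap between adult hotspots that held the member ended at a base where hotspots of 6 or more adult sets ended or began together. Such shared edges bounded 3347 of 714017 gaps between adult hotspots, or 0.469%. At 42 members both edges of the gap were shared. The gap was a multiple of 100 bp long at 41.3% of the 150 members against 1.06% of the other members. Rab2b, a small GTPase of the Golgi, is an example: its start held a member of CTCF score 80.6 in a gap of 1300 bp, and hotspots of 19 sets began at the right edge. At Clcn4, a chloride/proton exchanger, hotspots of 20 sets ended at the left edge of a 2500-bp gap. Edges shared by 16 to 20 sets lay inside a stem cell DNase-seq hotspot in 31.4% of cases, against 8.37% for edges of 1 set, but over all edges shared by 6 or more sets the share was 12.6%, with 9.18% for 6 to 10 sets and 8.19% for 11 to 15. What ended the adult hotspots there was not tested, and at these members the absence of an adult hotspot is a weaker statement than elsewhere.

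Repeated sequence was the other feature. A site was called repeated when fewer than 90% of the 32-base words in the 300 bases at its centre occurred once in the genome. The rest of a wider hotspot did not enter this share. Of the members, 550 (23.6%) were repeated, against 7.55% of shared sites, 5.26% of sites open in all 20 sets and 13.5% of stem-cell-only DNase-seq hotspots without CTCF, and the share over all open CTCF sites was 8.58%. The share was higher among members than among shared sites on 19 of 19 autosomes. Away from shared edges and repeats, 1663 members (71.5%) were left, which is 5.02% of the 33105 open CTCF sites in single-copy sequence. These are called the single-copy members, and their values are given beside the main results below. Single copy refers to the centre of a site in the mm10 assembly, and the copy number in the hybrid cells was not tested.

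The score of a hotspot is the −log10 of its false discovery rate, from 1.3 at the 5% limit to 100, the highest value written. The members had low CTCF scores. Their median was 6.05 (quartiles 2.37 and 16.7), and that of the single-copy members was 6.14, against 25.9 at shared sites and 32.9 at sites open in all 20 adult sets. The stem cell DNase-seq score at the same sites had a median of 3.97 in members, 3.64 in single-copy members and 7.13 at shared sites. Members were narrower, with a median CTCF width of 333 bp (343 bp in single-copy members) against 525 bp. A CTCF score under 2 was found at 397 members (17.1%) and at 4.05% of shared sites. The members beside shared edges differed from the rest, with a median DNase-seq score of 18.6 and a median CTCF score of 9.91.

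Values close to the limits of the rule were as follows. The lowest CTCF score and the lowest DNase-seq score of a member were both 1.31, and 17 members overlapped the stem cell DNase-seq hotspot by under 10 bp. An adult hotspot lay within 10 bp of 23 members and within 500 bp of 788 (33.9%). Just inside the rule was a site 178 bp from the start of Ahcyl1, a regulator of the IP3 receptor, with a CTCF score of 30.5, a DNase-seq score of 68.4 and an adult hotspot that touched it. Just outside was a site 6268 bp from Grid2ip with a score of 31.1, which overlapped an adult hotspot by 1 bp in 1 set. In all, 21 sites missed the rule by an adult overlap of under 10 bp. At the other end, 150 members lay over 10 kb and 34 lay over 50 kb from any adult hotspot, and the median gap was 1016 bp (866 bp in single-copy members).

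In CTCF score and motif share the members were the low end of a graded series. The number of adult sets with an overlapping hotspot ran from 0 to 20, with 17368 sites (48.0%) at 20, 2326 at 0 and 805 at 1. Sites found in 1 adult set had a median CTCF score of 9.89, sites found in 10 sets 16.1 and sites found in 19 sets 27.4. The same sites held the CTCF motif in 59.9%, 65.4% and 82.0% of cases, against 44.9% at the members. In motif share no other pair of neighbours on that axis differed by as much as the members and the sites found in 1 set. The stem cell DNase-seq score did not follow the series at this end, with a median of 3.97 in members and 3.33 to 3.79 in sites of 1 to 6 sets. Mean soft-masked sequence, the share of bases marked as repeats in the reference, was 27.3% in members, between 28.3% and 30.7% in sites of 1 to 4 sets and 12.4% in sites of 20 sets.

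**Figure D1:**
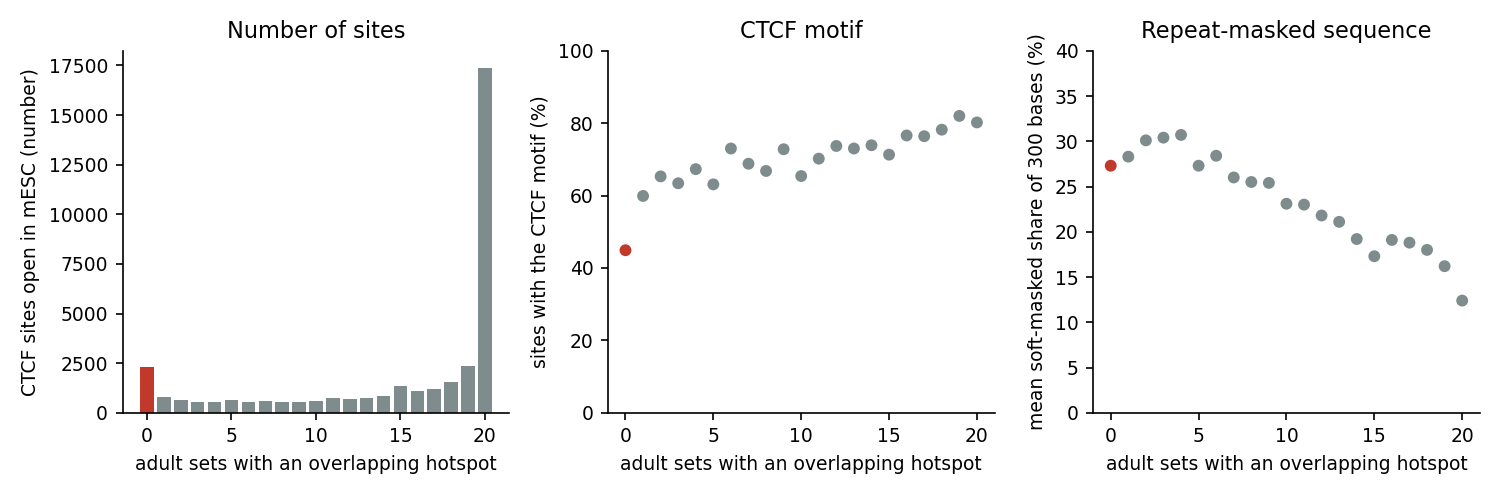
Open CTCF sites by the number of adult sets with an overlapping hotspot (x axis, 0 to 20): their number, the percent with the CTCF motif and the mean percent of soft-masked bases. The members are the red bar and points at 0, with the motif in 44.9%, against 80.2% of the sites open in 20 sets.

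The CTCF recognition sequence was less frequent in members than in shared sites, and the rule did not use sequence. The motif was held by 1044 of 2326 members, or 44.9% (42.9 to 46.9%), and by 45.9% of the single-copy members. Shared sites held it in 76.5%, and the share over all open CTCF sites was 74.4%. The shared sites include the 17368 sites open in all 20 adult sets that were offered to the matrix, which held it in 80.2%. Sites found in 1 to 19 adult sets were not offered to the matrix and held the motif in 59.9% to 82.0% of cases. The share in members was close to the 43.1% of the 56499 CTCF hotspots without stem cell DNase-seq, and over all CTCF hotspots it was 55.4%, so a low share was not particular to the members. It was found in 43.3% of the members beside shared edges and in 42.1% of the repeated members. On each of the 19 autosomes the share was lower in members than in shared sites, also among single-copy members. Of 31970 stem-cell-only DNase-seq hotspots without CTCF, 2.85% held the motif. Intervals here are 95% Wilson intervals, which cover counting error only, and neighbouring sites are not replicates.

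CTCF score and motif moved together, so members and shared sites were compared within ranges of the score. The motif was held by 18.7% of members and 22.6% of shared sites at scores up to 2.5, by 48.6% and 63.7% from 5 to 10, by 62.2% and 78.7% from 10 to 20, and by 78.0% and 86.7% from 20 to 40. From 40 up to the highest value the motif was held by 116 of 145 members and by 87.7% of shared sites. Members were thus lower in each of these ranges, by less than in the pooled comparison. Up to 2.5 the intervals overlapped (15.8 to 21.9% and 20.9 to 24.3%). Single-copy members gave 17.7%, 53.4%, 64.2%, 78.0% and 82.8%. The range of 2.5 to 5 held 29.0% of members with the motif against 41.7% of shared sites. At the highest score of 100 the pattern broke, with 10 of 28 members (35.7%) against 81.7% of 279 shared sites. Of those 28 members, 9 were single copy and away from shared edges. Members made up 21.8% of the open CTCF sites at scores up to 2.5 and 1.59% at scores of 40 up to the highest value.

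**Figure D2:**
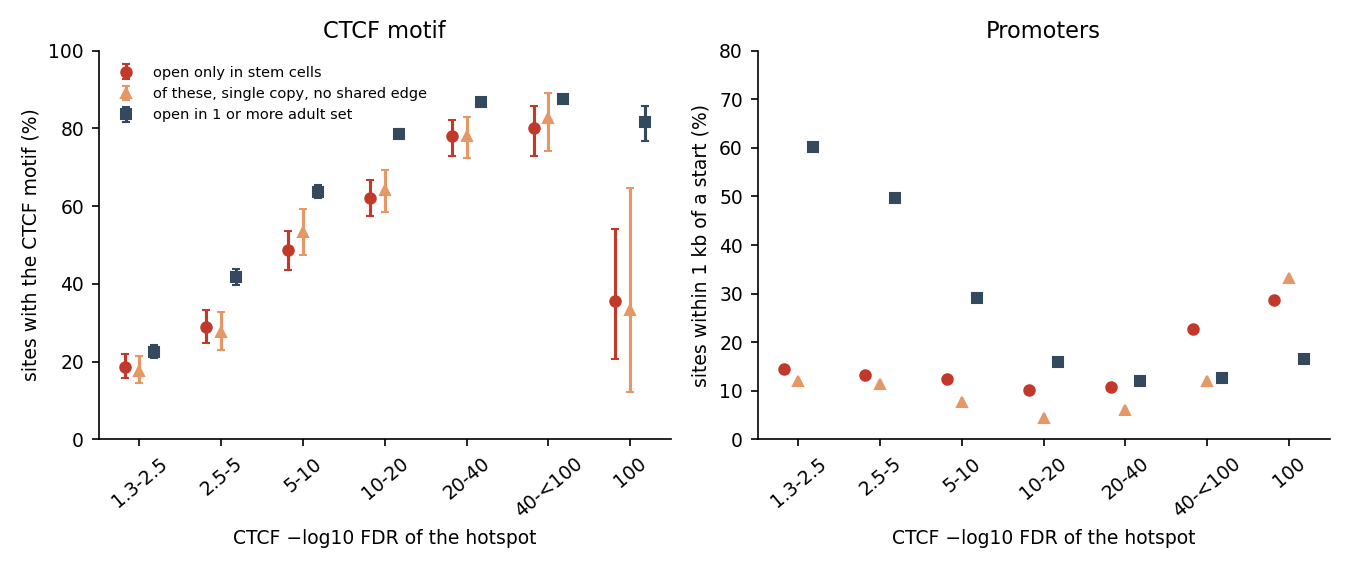
Percent of sites with the CTCF motif (left, bars are 95% Wilson intervals) and percent within 1 kb of a gene start (right) by range of the CTCF −log10 FDR, for members, single-copy members and shared sites. Motif shares rise with the score in all classes below the highest score of 100, and at scores up to 2.5 starts are close to 14.5% of members and 60.1% of shared sites. From 40 up to the highest value starts are close to 22.8% of members, 12.1% of single-copy members and 12.7% of shared sites.

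Among sites with a match, the CpG that the consensus holds at matrix positions 14 and 15 was present in 34.7% of members (31.8 to 37.6%), 32.5% of single-copy members and 35.5% of shared sites. These shares were close, and methylation was not measured. No other CpG of the match was counted. Matrix position 4 was C in 97.3% and position 5 was G in 13.2% of the matches that built the matrix, so some matches can hold a CpG there too. GC content had a median of 48.3% in members, 48.7% in single-copy members and 49.0% in shared sites and was lower in members on 13 of 19 autosomes. The ratio of observed to expected CpG had medians of 0.242 in members, 0.249 in single-copy members and 0.263 in shared sites and was lower in members on 14 of 19 autosomes. Soft-masked sequence had a median of 17.3% in members, 14% in single-copy members and 9% in shared sites, and its mean was higher in members on 19 of 19 autosomes, also among single-copy members.

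Exact words of other transcription factors were searched on both strands of the 300-base windows. The word of ESRRB (TCAAGGTCA), a pluripotency factor, was present in 1.12% of members, 1.32% of single-copy members (0.875 to 1.99%) and 0.570% of shared sites. It was present in 2.02% of the stem-cell-only DNase-seq hotspots without CTCF. The KLF word GGGTGTGG was found in 3.91% of members and 2.70% of shared sites, and the SOX word CATTGTT in 4.64% and 3.58%. The POU octamer ATGCAAAT was found in 1.68% (1.23 to 2.28%) and 1.41%. In the stem-cell-only hotspots without CTCF these shares were 6.31%, 7.44% and 3.92%. Members therefore lay between shared sites and stem-cell-only open sites for each of these pluripotency words. For the octamer the interval of the members included the value of the shared sites. The single-copy members held the KLF, SOX and POU words in 4.03%, 5.23% and 1.98%. CTCF sites without stem cell DNase-seq held the SOX word in 4.72% and the octamer in 1.85%, so shares of that size were also found at CTCF sites not open in stem cells, and they held the KLF word in 2.01% and the ESRRB word in 0.536%. Among words of adult lineages, that of HNF4 (CAAAGTCCA, liver and kidney) was present in 3 members, that of PU.1 (AGAGGAAGT, blood) in 10, and that of CEBP (TTGCGCAA) in 0 of 2326, which allows a share of up to 0.165% by the Wilson interval. Shared sites held these words in 0.360%, 0.602% and 0.0797%, each inside the interval of the members. Other such words went the other way. Members and shared sites held the FOXA word in 4.30% and 3.58% and the TEAD word in 4.64% and 3.85%. For RUNX the shares were 2.15% and 2.03%, and for ETS 0.172% and 0.145%. The interval of the members included the value of the shared sites for FOXA, RUNX and ETS, and for TEAD it began at 3.86%, just above that value. The single-copy members held the FOXA and TEAD words in 3.55% and 3.97%, close to shared sites. The AP-1 word TGANTCA was found in 8.21% of members, 8.36% of single-copy members and 7.90% of shared sites. The members held the YY1 word AAGATGGCG in 1.12%, but the single-copy members held it in 0.601% and shared sites in 0.708%. The NFI word TTGGCA was less frequent in members (interval 9.80 to 12.3%) than in shared sites (13.3%), and for the single-copy members, at 11.8%, the interval of 10.3 to 13.4% included the value of the shared sites. Of the words not named above, the rarest in members was that of ZBTB33 (0.0860%, 0.0974% of shared sites) and the most frequent that of GATA factors (12.5%, 12.3% of shared sites).

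Taken over all scores, members were less often at promoters than shared sites. A start lay within 1 kb of the site centre at 311 members (13.4%), at 9.14% of single-copy members and at 6777 of 33887 shared sites, and the share over all open CTCF sites was 19.6%. Sites open in all 20 sets held a start in 25.2% of cases, and sites of 1 to 6 adult sets in 10.7% to 13.1%, no more than the members. Over all CTCF hotspots it was 10.9%, and at stem-cell-only DNase-seq hotspots without CTCF 7.06%. It was lower in members on 17 of 19 autosomes and in single-copy members on 19 of 19. Shared edges worked the other way, since 85 of the 150 members beside them (56.7%) were at promoters against 10.4% of all other members. Of 208 members within 1 kb of a protein-coding start, 73 (35.1%) lay beside a shared edge and 98 were single-copy members. The difference was widest at low scores: up to 2.5, promoters held 14.5% of members, 12% of single-copy members and 60.1% of shared sites. From 20 to 40 they held 10.7% of members, 6.03% of single-copy members and 12.1% of shared sites. From 40 up to the highest value the direction turned, with 22.8% of members and 12.7% of shared sites, while single-copy members had 12.1%. At the highest score of 100 promoters held 28.6% of members, 33.3% of the 9 single-copy members and 16.5% of shared sites. Members lay in introns in 37.3%, in exons in 6.84% and between genes in 42.5% of cases, against 39.2%, 5.26% and 35.6% of shared sites, and in 40.5%, 8.90% and 41.4% of single-copy members. The median distance to a start was 11808 bp in members, 13928 bp in single-copy members and 8467 bp in shared sites.

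The 12 members of highest score were mostly not ordinary CTCF sites. All 12 had the highest CTCF score of 100, 9 of them lay in repeated sequence and 2 held the motif. The widest was a hotspot of 9283 bp in Sfi1, a centrin-binding protein of the spindle pole, and a second one of 6600 bp lay beside it in the same gene. Both fell in a 79254-bp gap of the adult hotspots with edges shared by 14 and 18 sets. Another, of 6012 bp, lay 838 bp from the start of Gm26917, where the mm10 assembly carries a copy of the ribosomal RNA precursor gene. The centre of that hotspot was single copy in the assembly although ribosomal genes are tandem arrays in the mouse genome. Near Gm10800, Gm10801 and Gm10717 the sites held 37.5%, 43.5% and 33.1% single-copy words and scored 0.80, −5.55 and −2.44 bits, and the sequence printed for Gm10717 is that of the mouse major satellite, the tandem repeat beside centromeres. The motif was present at CR555305.2, where hotspots of 20 adult sets began at the right edge of the gap, and near Gm49554, where 27.1% of the words were single copy. The DNase-seq score was also 100 at these sites, except near Gm49554, where it was 66.2.

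At protein-coding starts the 12 highest members were at Gm10800, Gm10801, Gm10717 (2 sites), Hjurp, Rrp1, Pcdha1, Clcn4, Dpep3, Rab2b, Adsl and Gm10722, and 3 of them held the motif. Leaving out repeats and shared edges, a choice made after their values were seen, gave Hjurp, Rrp1, Dpep3, Adsl, Kif26a, Tdrd12, Pcdha5, Fam3b, Sycp2, 1600014C10Rik, Wrb and Morc1, of which 8 held the motif. Over all 98 single-copy members at protein-coding starts, 30 held it. Hjurp, the chaperone that deposits the centromeric histone CENP-A, had a hotspot of 2459 bp and score 100, 913 bp upstream of its start, with no motif (−0.74 bits). Rrp1, a ribosomal RNA processing factor, had a score of 100, 82 bp upstream, and a best match of 7.31 bits. Adsl, an enzyme of purine synthesis, had a score of 61.0 in a gap of 1200 bp, at the right edge of which 3 adult sets shared a base, fewer than the 6 that define a shared edge here. Pcdha1 and Pcdha5 are protocadherin promoters, whose alternative use in neurons depends on CTCF. Pcdha1 scored 100 with 68.8% single-copy words, and Pcdha5 scored 51.9 with a match of 13.10 bits.

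At 4 of these starts, printed above, the gene is known from the germline. Tdrd12 and Morc1 were not on the germline list and were chosen after their values were seen. Dpep3, a dipeptidase of testicular germ cells, had a CTCF score of 83.0 and a DNase-seq score of 6.55, 36 bp upstream of its start. Tdrd12, a Tudor protein of the piRNA pathway, had scores of 55.4 and 8.12, 48 bp upstream. Sycp2, of the lateral element of the synaptonemal complex, had scores of 47.4 and 7.73, 44 bp upstream. Morc1, which silences transposons in male germ cells, had scores of 41.1 and 10.4, 50 bp upstream. The nearest adult hotspot was 1319 bp from the Dpep3 site, 997 bp from that of Tdrd12, 1081 bp from that of Sycp2 and 6082 bp from that of Morc1. All 4 sites had between 99.6% and 100% single-copy words, no shared edge and a best match above the threshold.

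Gene lists were read by the CTCF sites open in stem cells within each gene and 10 kb around it, beside the 6.42% of such sites that were members over the autosomes. The germline list held 42 such sites, of which 4 (9.52%, 3.77 to 22.1%) were members: Dpep3, Sycp2 and 2 sites at Tdrd9, another piRNA factor. The Tdrd9 sites had scores of 34.2 and 59.3 and matches of 20.18 and 14.82 bits. The pluripotency list held 61 sites and 6 members (9.84%, 4.59 to 19.8%), 5 of them single-copy members. They were weak: Zfp42 (2.46), Dppa2 (2.27, 340 bp from its start), Tfcp2l1 (1.75) and Tdgf1 (1.61) had the CTCF scores given, and Fgf4, a growth factor secreted by stem cells, had 2 sites of 2.64 and 15.7. The stronger Fgf4 site, 9840 bp from the start, held the motif, and so did the site near Tdgf1, a co-receptor of Nodal. The nearest adult hotspot lay 6 bp from the Zfp42 site, 10 bp from the weaker Fgf4 site and 12 bp from the Tdgf1 site. It lay 367 bp from the Tfcp2l1 site and closer than that to the Dppa2 site. From the stronger Fgf4 site it was 3296 bp away. None of the core factors Pou5f1, Nanog, Sox2, Klf4 or Esrrb had a member.

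Imprinted genes held 92 sites and 8 members (8.70%, 4.47 to 16.2%), all single-copy members. The highest was in an intron of Kcnq1, a potassium channel gene of an imprinted cluster, with a CTCF score of 62.3, a DNase-seq score of 10.1 and a match of 17.34 bits. Rian, a maternally expressed noncoding RNA, had a site of score 31.6 and a match of 16.31 bits. Sfmbt2 had a site of score 15.4 and Slc22a3 a site of score 9, both with the motif. The intervals of the germline, pluripotency and imprinted lists all included 6.42%, so none of these shares was distinguishable from the background at these counts.

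Also in the 2-cell-like, receptor and DNA methylation lists the share was above 6.42%, and most members there were repeated or beside shared edges. Of 9 sites at genes of the 2-cell-like state, 6 (66.7%) were members, all at Duxf3, the factor that activates genes of the 2-cell embryo. Their scores were 1.39 to 6.86, single-copy words made up 23.4% to 85.5%, and 0 were single-copy members. Olfactory and vomeronasal receptor genes held 180 sites and 30 members (16.7%, 11.9 to 22.8%). Only 13 of the 30 were single-copy members, out of 134 single-copy sites, and this share of 9.70% (5.76 to 15.9%) was still above the 5.02% of all open single-copy sites. DNA methylation genes held 38 sites and 4 members (10.5%), at Mbd4 (2 sites), Dnmt1 and Mbd1, and all 4 lay beside shared edges. At Dnmt1, the maintenance methyltransferase, the member had a score of 54.1, lay 53880 bp from the Dnmt1 start and had an edge shared by 20 sets. The list of adult tissue genes, such as Alb, Umod and Sftpc, held 48 sites and 0 members, which allows a share of up to 7.41%. Regulators of germ layers and neural fate held 1 member in 50 sites (at Pdgfra, score 9.34, match 21.49 bits). The Hox clusters held 1 in 19 (near Hoxc12 and Hoxc13, score 2.80), and CTCF and cohesin genes held 1 in 38 (at Esco1, which acetylates cohesin, score 9.64, with 85.9% single-copy words).

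**Figure D3:**
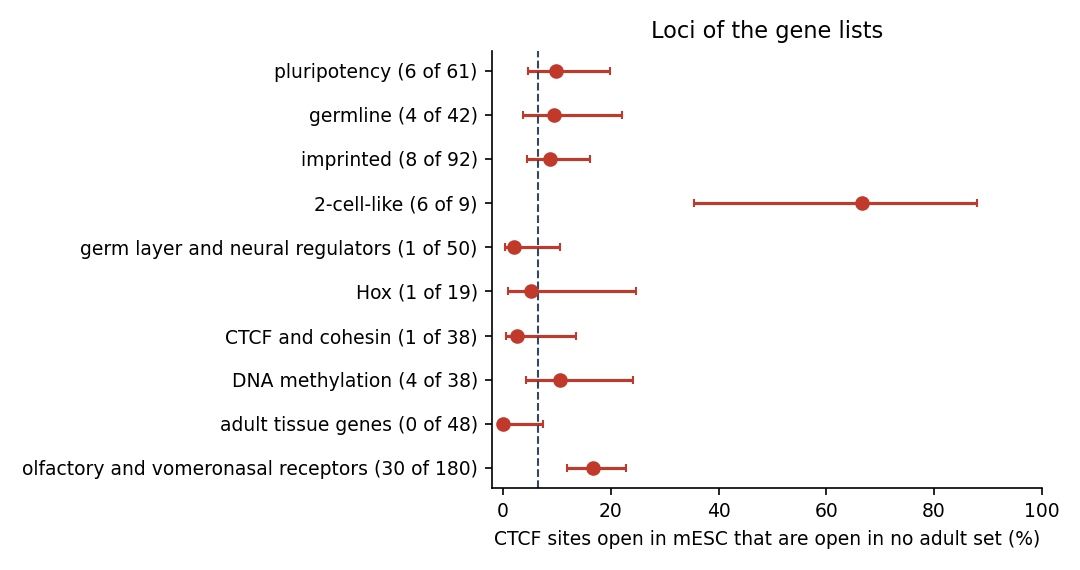
Percent of the CTCF sites open in stem cells that were members, for each gene list, with 95% Wilson intervals and the counts in the labels; the dashed line is the 6.42% over all autosomes. 6 lists lie to the right of the line, the intervals of the 2-cell-like and receptor lists alone clear it, and no adult tissue gene site was a member.

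Members were also found in groups. Another member lay within 10 kb of 441 (19%), and of the single-copy members 212 (12.7%) had another single-copy member that close. The 3 loci with most members in 100 kb were chr9:2999933-3036659 with 24 members, chr4:147335146-147432349 with 21 and chr1:88217138-88309823 with 13. The chromosome 9 group held the satellite-bearing Gm10717 and its neighbours, had a median of 11.9% single-copy words, and 0 of its 24 sites held the motif. The chromosome 4 group lay at Zfp978, a zinc finger gene, with a median of 55.0% single-copy words. In the chromosome 1 group, which overlaps Hjurp and Trpm8, a cold-sensing channel, single-copy words had a median of 100% and 3 of 13 sites held the motif.

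Among single-copy members the leading loci were Hjurp to Trpm8 (11 members), Aspg to Kif26a on chromosome 12 (9) and 1600014C10Rik on chromosome 7 (5). The chromosome 12 locus was a 229-kb stretch without any adult hotspot, chr12:111978502-112207836. It overlaps Tdrd9, Rd3l, the asparaginase gene Aspg and the kinesin gene Kif26a. The Tdrd9 start lay outside it, since the intronic member was 29839 bp from that start and 22554 bp from the adult hotspot at the left end. The stretch held 10 members, 9 with the motif, at scores from 1.68 to 82.7. Stem cell DNase-seq hotspots numbered 21 there, or 9.16 per 100 kb, against 4.56 over the autosomes, and its ends were not shared edges (1 and 2 sets). At 1600014C10Rik a 36.2-kb gap held 4 members, all with the motif, at scores from 18.1 to 100. The Hjurp gap was unlike these, since its 43.0 kb held 22 stem cell DNase-seq and 23 CTCF hotspots, 12 members and the motif at 2 of them. The density of 51.2 DNase-seq hotspots per 100 kb there stands beside hotspots as wide as 6283 bp, and its cause was not tested. The nearest shared site was a median of 17814 bp from a member (14662 bp from a single-copy member), and the nearest site open in all 20 adult sets 45240 bp. Shared sites were closer to each other, with a median of 10939 bp. A shared site lay within 2 kb of 349 members (15%) and of 19.8% of the shared sites themselves.

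The rule bars adult hotspots from a member itself but not from its surroundings, so hotspots of each adult set within 10 kb of the members were counted and set against the same count after a shift of 1 Mb. In B cells the share of members with a neighbour was 54.0% (B6x129), 42.4% (B6xC3H), 64.1% (B6xCAST), 54.8% (B6xPWK) and 47.5% (B6xSPRET). After the shift these shares were 49.2%, 40.6%, 58.4%, 50.4% and 44.0%. All 5 B cell sets thus had more neighbours near members than after the shift. All 2326 shifted positions were counted, and unlike the members they were not barred from lying on an adult hotspot. The effect of this on the ratios was not tested. The log2 ratio of the near share to the shifted share was 0.13, 0.06, 0.13, 0.12 and 0.11, with a mean of 0.11 ± 0.03 (SD, n = 5 hybrids). In liver it was −0.06, −0.07, 0.00, −0.01 and −0.04 in the same order, with a mean of −0.04. In kidney it ran from −0.02 to 0.02, with a mean of 0.00, and in lung from −0.01 to 0.05, with a mean of 0.03. B cells were highest in each of the 5 hybrids, and their values did not overlap those of the other tissues.

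These values are a description without a test, because the same 20 adult sets chose the members and each set barred a different number of sites: of the sites found in 1 adult set, 301 were in a liver set, 147 in a kidney set, 185 in a lung set and 172 in a B cell set. For the single-copy members the ratios were higher in each tissue. Liver then lay above the shift in all 5 hybrids, from 0.03 to 0.07 with a mean of 0.04, so its direction against the shift turned. The means were 0.16 for B cells, 0.09 for lung and 0.08 for kidney, and the B cell values (0.10 to 0.22) overlapped those of lung (0.05 to 0.11). Stem-cell-only DNase-seq hotspots without CTCF, chosen by the same bar on adult hotspots, had means of 0.06 for liver and for lung and of 0.08 for kidney and for B cells. Against the mean of the other 3 tissues the B cell ratio was higher by 0.11 for the members and by 0.09 for the single-copy members. With the 75000 highest-scoring hotspots of each set it was higher by 0.11. The B cell sets held the fewest hotspots, 78387 to 156078. The sizes were small, since a log2 ratio of 0.11 corresponds to shares such as 47.5% and 44.0%.

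**Figure D4:**
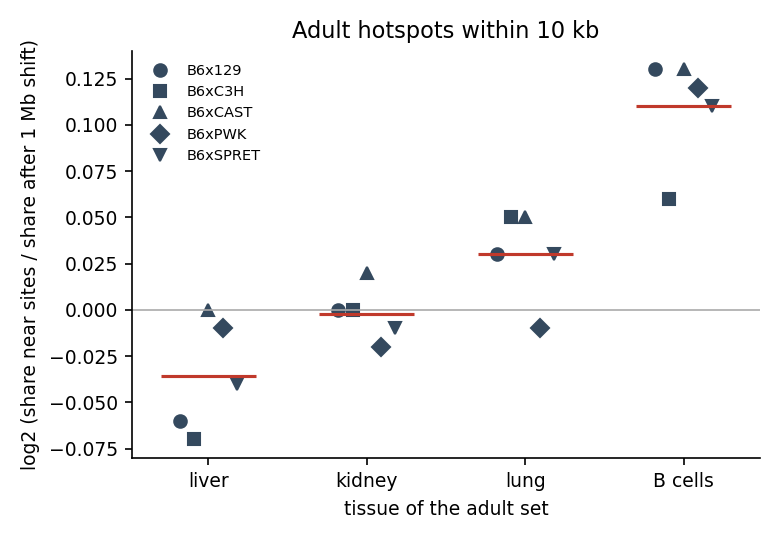
Log2 ratio of the share of members with an adult hotspot within 10 kb to the same share after a 1 Mb shift (y axis) for the 20 adult sets by tissue; symbols are the 5 hybrids and red lines the means. The 5 B cell sets lie between 0.06 and 0.13, above the 15 other sets.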

How the data were processed

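Hotspot sets of 20 adult DNase-seq conditions (the B6x129 hybrids had 129S1/SvImJ sires), of B6xCAST mESC DNase-seq and of B6xCAST mESC CTCF ChIP-seq were used. The deposited hotspot scores are −log10 FDR values, which the authors obtained with hotspot2 from pooled samples. Reads (paired, 36 bases) had been trimmed and mapped to mm10 and to a strain-specific genome, keeping a mapping quality of at least 20. The submitters' processing notes name BWA, RSEM, STAR and Trimmomatic. Removal of problem regions before hotspot calling is not given in the sources used here. The hotspot sets carry no read depth. Listings that came with the study give analyzed reads and enrichment, but these did not enter the counts here. Differences in depth or enrichment between the stem cell and adult sets were therefore not accounted for. RNA-seq tables were not used.

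Overlaps of 1 bp, gaps between merged adult hotspots, 32-base word copies, 300-base windows and gene contexts (GENCODE vM21) were computed in Python 3.11.15 with numpy 2.4.6, pandas 2.3.3 and numba 0.67.0, and figures were drawn with matplotlib 3.10.9. The matrix was seeded with CAGGGGGC and used 16474 of the 17368 sites open in all adult sets. Overlap, matrix and permutation steps were tested on simulated data, with planted matches drawn from the learned matrix. The copy step was checked on member windows against a plain string search of the genome. Regions are not replicates and were not tested. An exact permutation test of the tissues within hybrids was computed, but its p-values are not given, because the adult sets it compares also chose the members. Separate mice or pools within a condition cannot be resolved in pooled sets.

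Named sites were the 12 members of highest CTCF score (ties by DNase-seq score, then width), the 12 highest within 1 kb of a protein-coding start, every pluripotency gene with a member, the 4 genes with most members of each other list, and the 3 loci with most members in 100 kb. Members, gene lists and words were chosen with earlier results of these data known. The split by shared edges and repeats, the single-copy lists, the score ranges, Tdrd12, Morc1 and the stretches without adult hotspots were chosen after seeing the data.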

Additional observations from a re-analysis of the deposited data

Results flagged for a closer look

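Of the 805 CTCF sites open in stem cells and in exactly 1 adult set, the counts by set were uneven within a tissue. Among the 5 liver sets, 215 such sites lay in B6x129 alone against 15 to 34 in each of the others. Among the 5 B cell sets, 117 lay in B6xCAST alone against 1 to 19 in each of the others. B6xCAST, the hybrid of the stem cells, also had the most such sites in lung (122) and in kidney (58), but the fewest in liver (15). The B6x129 liver and B6xCAST B cell counts are the 2 of 12 groups in which 1 pooled set stood apart from the others by Dixon's criterion. Each group was 1 measure in 1 tissue, and the share of members with a near hotspot and its log2 ratio were both among the measures. Chance sets apart about 1 in 20 groups of independent values, and these groups were not independent. The B6x129 liver set held the most hotspots of all 20 sets (295565), and the B6xCAST B cell set held the most of the B cell sets (156078). A listing that came with the study also gives B6x129 liver the most analyzed reads of all adult sets. It gives B6xCAST B cells the most of the B cell sets. The part of read depth and that of the hybrid in these counts were not tested. Without hybrid B6x129 the members made up 7.49% of the open CTCF sites and without hybrid B6xCAST 7.50%, in place of 6.42%.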

How the results depend on the processing

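With the differences between tissues left aside, 75 of 132 alternatives over 18 results were labelled as the same. That label was loose for the number of members. It was given to 1589 members (FDR 1% in the stem cell sets) and to 3325 (against the 4 B6xCAST adult sets), in place of 2326. The matching shares, 4.98% and 9.18%, were labelled as moved. The motif share of members stayed below that of shared sites in 12 of 12 alternatives, not counting a consensus too short to be informative, and the B cell difference from the other tissues, which is not tested here, was 0.06 to 0.19 in the alternatives run. The number of members was 1445 when at least 50% of the CTCF hotspot had to be covered by stem cell DNase-seq, 1538 with no adult hotspot within 500 bp, and 6182 when only the 75000 highest-scoring hotspots of each adult set counted. Their share was then 6.74%, 4.25% and 17.1%. It was 5.91% at FDR 1% in all sets, 4.98% at FDR 1% in the stem cell sets, and 9.18% against the 4 B6xCAST adult sets. It was 7.49% without B6x129 and 7.50% without B6xCAST, and 7.95%, 7.19%, 7.32% and 7.30% without liver, kidney, lung and B cells. Alternatives chosen after seeing the data gave 6.01% and 5.79% without members beside edges shared by 6 or by 3 or more sets, 5.36% for members in single-copy sequence and 5.02% for those also away from shared edges. The motif share was 51.8% at FDR 1%, 47.2% with the 500-bp limit, 51.7% against the 4 B6xCAST sets, 50.3% and 35.5% in windows of 200 and 500 bases, and 16.4% at the score of 1% of shifted windows. That consensus of the strongest positions, CNNNNGNNG, was held by 99.7%, so CCNNNAGGNGGC was added and was held by 9.89% of members and 22.5% of shared sites. Median GC was 47.3% (500-bp limit), 47.7% (B6xCAST sets), 49% in single-copy sequence, and 49% and 47.2% in windows of 200 and 500 bases. The CpG ratio was 0.227, 0.232 and 0.257 under the first 3 of these. Median soft-masked sequence was 20.7%, 20% and 13% under the same 3, 19.3% without edges shared by 3 or more sets, 14% in single-copy members, and 15.5% and 19.3% in the shorter and longer windows. The promoter share was 11.1% and 11.8% under the first pair, 10.4% and 9.54% without edges shared by 6 or 3 or more sets, 9.14% in single-copy members, and 18.4% within 2 kb. The distance to a start was 12771, 13377 and 13928 bp under the 3 limits on edges and repeats. Among lists, the 2-cell-like share was 21.9% with 50 kb around genes and 0 in single-copy members, as were those of the CTCF and cohesin and the DNA methylation lists. The receptor share was 9.70% in single-copy members, and the Hox share was 0 at FDR 1%. The liver difference of −0.08 was −0.09 within 5 kb, −0.03 within 50 kb, −0.03 with 75000 hotspots a set, −0.07 without B6x129 and without B6xC3H, and −0.09 to −0.07 over the 5 hybrids left out in turn. The lung difference of 0.00 changed sign to −0.06 within 5 kb, −0.06 with 75000 hotspots, −0.01 with a 2 Mb shift and −0.01 without B6xC3H, and was 0.00 at FDR 1% and in single-copy members. The cause of these changes was not tested. Window length cannot change the promoter share or the distance, so those settings were not run. No paired analysis was possible because the stem cell sets have no replicates and the adult sets are pooled, and tissues were compared within hybrids. Hotspot sets without counts limit what an absent hotspot says, since a site under the FDR limit is not shown to be closed.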
